A study of Homo sapiens with 6 samples.

Results

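The genes described are those of the proteasome, taken as every symbol in the expression table that starts with PSM, carries a letter from A to G and ends in a number; rows that share a symbol were summed. This gave 46 of 19437 genes, and all 46 passed the filter on low values (3 or more of the 6 libraries at 1 CPM or above), which 13648 genes passed in all. PSMA8 and PSMB11, tissue-restricted subunits, were not analysed here. The rule also leaves out 2 subunits with other names, ADRM1 and SHFM1, which are given with the partner genes. The values come from poly(A) RNA of SCC9, an established line grown from a human squamous carcinoma of the tongue. One group of 3 libraries (A, B, C) received an adenovirus for green fluorescent protein (GFP, the control) and the other 3 (A, B, C) an adenovirus for TEADi, known from the series title only as a means of TEAD inhibition. TEAD proteins are the DNA-binding partners of YAP1 and TAZ. Both groups were grown with hydrocortisone, were transduced at a multiplicity of infection of 25 and were harvested at 48 h, so every library carries an adenovirus and no untransduced cells were part of the comparison. The labels say that the transduction was done in triplicate and nothing more of separate cultures, so p-values reflect how far these libraries differ from each other, and part of that spread may be technical.

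The proteasome is the main protease of the cytosol and nucleus and degrades proteins tagged with ubiquitin. Its 20S core is a stack of rings: alpha subunits (PSMA genes) form the outer rings and gate the entry, and beta subunits (PSMB genes) form the inner rings, where PSMB5, PSMB6 and PSMB7 carry the constitutive active sites. Interferon-gamma induces PSMB8, PSMB9 and PSMB10, which replace PSMB5, PSMB6 and PSMB7 in the immunoproteasome, a form known for making peptides for MHC class I. The 19S cap, made of ATPases (PSMC genes) and non-ATPase subunits (PSMD genes), binds and unfolds ubiquitinated proteins. PSME genes encode other activators of the core, PSMF1 an inhibitor, and PSMG genes the chaperones that assemble the alpha ring. NFE2L1 (NRF1) is the transcription factor known to raise subunit genes together when proteasome activity is short.

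Of the keratins of simple epithelia, KRT8 measured 207 ± 20.2 CPM (SD, n = 3 libraries) in GFP and 101 ± 4.36 in TEADi. KRT18 measured 78.1 ± 3.57 CPM in GFP and 61.2 ± 2.24 in TEADi. KRT7, also of simple epithelia, was low in both groups, at 3.31 ± 0.884 and 3.12 ± 0.452 CPM. The epithelial marker EPCAM was low as well, at 2.98 ± 0.674 CPM in GFP and 1.74 ± 0.366 in TEADi. Markers of basal keratinocytes differed within the GFP group. KRT5 measured 21.7, 17.2 and 0.414 CPM under GFP (libraries A, B, C) and 0.173, 0.216 and 0.302 under TEADi, so it was high in GFP libraries A and B and low in the other 4. KRT14 (3.57, 1.52 and 0.0690 CPM under GFP), KRT17 (4.29, 3.26 and 0.759) and TP63 (0.893, 0.910 and 0.138), like the epithelial cadherin CDH1 (1.73, 1.21 and 0.276), were also higher in GFP libraries A and B than in the other 4 libraries. None of these 5 genes passed the filter on low values. The 10 listed epithelial markers summed to 271 to 349 CPM in GFP and 164 to 175 in TEADi. CD14 was the single blood marker measured and stood at 0.227 to 0.417 CPM in GFP and 1.15 to 1.81 in TEADi; VWF, of endothelium, reached at most 0.181 in any library. The stromal marker COL1A1 was high in both groups, at 302 to 429 and 236 to 275 CPM. The part of these markers in the results below was not tested. The unit is CPM, read counts per library size after the TMM scaling by the authors. The total divided by the smallest value of a library, the nearest measure of depth, ran from 9589768 to 15380584. In bulk RNA a lower level cannot be told apart from fewer cells that hold the transcript.

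Most proteasome genes were lower in TEADi by a small and similar amount. Of 46 genes, 34 were lower, 2 were higher (PSMB8 and PSME1) and 10 were not called at an adjusted p of 0.05 (limma with Benjamini-Hochberg adjustment over 13648 genes). That is 73.9% lower and 4.35% higher, against 35.3% lower and 25.5% higher, or 60.8% called in either direction, among all genes tested. The median log2 fold change on the log2(CPM + 1) scale was -0.29, against -0.07 for all genes tested. No member reached a 2-fold change; the largest fall was that of PSMG1. The summed level of the 46 genes was 9262, 8185 and 8060 CPM under GFP (libraries A, B, C) and 6774, 6882 and 7009 under TEADi, without overlap. GFP library C, which had little KRT5, had the lowest of the GFP sums and lay above every TEADi library. Whether the difference in KRT5 bears on these sums was not tested. All TEADi values lay below all GFP values in 37 members and above them in 2 (38.1% and 27.7% of all genes tested), and the groups overlapped in 7; over all genes tested 65.7% did not overlap.

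GFP library A stood apart. It held the highest of the GFP values in 43 of 46 members, against 48.6% of all genes tested, and lay a median of 0.20 above the other GFP libraries on the log2 scale (0.06 for all genes tested). Without it 32 members were called lower and 4 higher (33.6% and 25.1% of all genes tested), and the median was -0.25. The 2 members added to the higher calls were PSMB9 and PSME2. The scaling between libraries also touched the calls: with equal totals the median of all genes tested moved to 0.00 and that of the members to -0.21. With that scaling 30 members were called lower and 4 higher, against 30.2% and 30.7% of all genes tested. Across all 15 alternative settings, 28 members stayed called lower and PSMB8 and PSME1 stayed called higher.

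**Figure D1:**
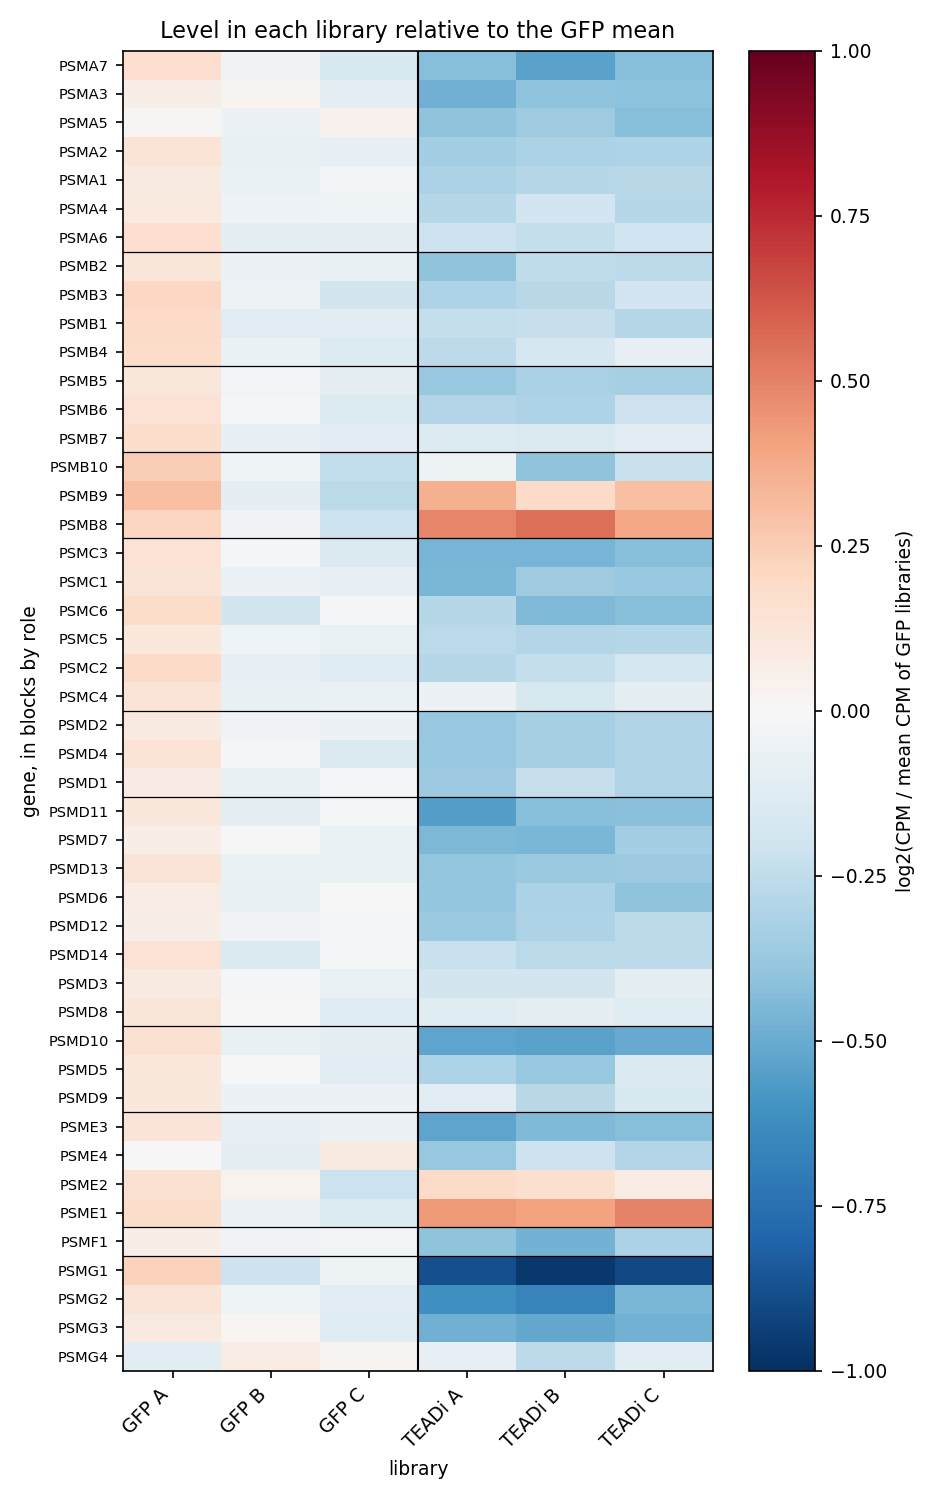
Level of each of the 46 proteasome genes in each library, as log2 of its CPM over the mean CPM of the 3 GFP libraries; rows are in blocks by role and columns are libraries, with GFP at the left of the black line and TEADi at the right. GFP library A is the reddest of the GFP columns, and PSMB8 and PSME1 are red in all 3 TEADi libraries while most other rows are blue.

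All 7 alpha subunits measured were lower in TEADi, with log2 fold changes from -0.45 (PSMA7) to -0.21 (PSMA6). PSMA3 measured 132, 129 and 119 CPM under GFP (libraries A, B, C) and 90.7, 96.1 and 95.7 under TEADi (same order). All 3 TEADi values lay below the lowest GFP value, a difference of 1.35-fold (log2 fold change -0.42 ± 0.07 SE; limma, Benjamini-Hochberg adjusted p = 3.4e-05). PSMA5 measured 112, 106 and 114 CPM under GFP and 83.7, 86.7 and 82.5 under TEADi. It was 1.31-fold lower, the groups did not overlap, and GFP library A was not its highest (limma, Benjamini-Hochberg adjusted p = 6.4e-05). PSMA7, the alpha subunit with the largest fitted fall, went from 299 ± 34.6 to 217 ± 8.90 CPM (SD, n = 3). The smallest fall was less firm: the adjusted p of PSMA6 was 0.0227 (limma, Benjamini-Hochberg), ranged from 0.0102 to 0.208 over the alternatives, and passed 0.05 in 9 of them, among them the settings without GFP library A or without any 1 of the TEADi libraries.

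In the beta rings 3 of the 4 subunits without an active site were lower. PSMB2, PSMB3 and PSMB1 had log2 fold changes of -0.30, -0.25 and -0.24, and PSMB4 was not called. PSMB2 measured 224, 198 and 196 CPM under GFP and 157, 173 and 172 under TEADi, so that the groups did not overlap (1.23-fold lower; limma, Benjamini-Hochberg adjusted p = 0.0017). PSMB1 measured 407, 331 and 329 CPM under GFP and 302, 303 and 293 under TEADi. GFP library A lay far above the other GFP libraries, and the difference was 1.19-fold (limma, Benjamini-Hochberg adjusted p = 0.0137). The adjusted p of PSMB1 reached 0.185 and that of PSMB3 0.113 with quantile normalization (limma, Benjamini-Hochberg), and both calls were lost with equal totals; that of PSMB1 was also lost without TEADi library C and that of PSMB3 without TEADi library A. PSMB4 measured 268, 225 and 214 CPM under GFP and 196, 210 and 223 under TEADi, and its groups overlapped.

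Of the constitutive catalytic subunits, PSMB5 and PSMB6 were lower and PSMB7 was not called; the difference between them was not tested. PSMB5, which carries the chymotrypsin-like site that bortezomib blocks, measured 203, 185 and 176 CPM under GFP and 145, 150 and 149 under TEADi. The difference was 1.27-fold (log2 fold change -0.34 ± 0.07 SE; limma, Benjamini-Hochberg adjusted p = 3.4e-04). PSMB6, the caspase-like site, measured 204, 181 and 167 CPM under GFP and 150, 148 and 160 under TEADi (1.21-fold lower; limma, Benjamini-Hochberg adjusted p = 0.0054). Both genes had TEADi values below every GFP value. PSMB7, the trypsin-like site, measured 186, 155 and 153 CPM under GFP and 150, 149 and 152 under TEADi. Its TEADi values also lay below all GFP values, by a narrow margin, and it was not called (log2 fold change -0.12, 95% interval -0.28 to 0.04; limma, Benjamini-Hochberg adjusted p = 0.165).

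Of the inducible subunits, PSMB8 was higher and PSMB9 and PSMB10 were not called. PSMB8 measured 30.8, 25.9 and 22.8 CPM under GFP and 37.1, 38.8 and 34.7 under TEADi. All TEADi values lay above all GFP values and the gene was 1.39-fold higher (log2 fold change 0.47 ± 0.10 SE; limma, Benjamini-Hochberg adjusted p = 5.8e-04). PSMB9 measured 13.9, 10.5 and 9.31 CPM under GFP and 14.4, 12.8 and 13.8 under TEADi. The GFP value of library A fell among the TEADi values, and the gene was not called (log2 fold change 0.28, 95% interval 0.01 to 0.55; limma, Benjamini-Hochberg adjusted p = 0.0701). Without GFP library A its adjusted p was 0.0032, and without GFP library C it was 0.287 (limma, Benjamini-Hochberg), the ends of its range over the alternatives. PSMB10 measured 19.05, 15.6 and 13.6 CPM under GFP and 15.5, 12.2 and 13.8 under TEADi, with overlapping groups (log2 fold change -0.20, 95% interval -0.46 to 0.07; limma, Benjamini-Hochberg adjusted p = 0.181). Without GFP library C the adjusted p of PSMB10 was 0.03995 (limma, Benjamini-Hochberg). The authors' table places PSMB8 and PSMB9 on alternate MHC haplotype sequences of hg19: PSMB8 has 1 entry and PSMB9 has 4, of which 3 are at the smallest value of each library.

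Per kilobase of the principal transcript in GENCODE 29, whose lengths may differ from the annotation the authors used, the inducible subunits were the scarcer of each pair in GFP. PSMB8 came to 23.6 CPM per kilobase against 145 for PSMB5. PSMB9 came to 14.4 against 216 for PSMB6, and PSMB10 to 13.2 against 168 for PSMB7.

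A ratio taken within a library does not depend on the scaling between libraries, so each inducible subunit was set against its constitutive counterpart. PSMB8 over PSMB5 was 0.151, 0.140 and 0.129 in GFP and 0.256, 0.258 and 0.232 in TEADi. All 3 TEADi ratios lay above all GFP ratios, by 1.78-fold on average (difference of mean log2 ratio 0.83; group SDs 0.11 and 0.08). PSMB9 over PSMB6 was 0.0681, 0.0582 and 0.0556 in GFP and 0.0959, 0.0863 and 0.0865 in TEADi, a 1.48-fold difference (0.57 on the log2 scale). The groups did not overlap here either, although the level of PSMB9 itself did. PSMB10 over PSMB7 was 0.103, 0.101 and 0.0887 in GFP and 0.104, 0.0814 and 0.0907 in TEADi, a difference of -0.09 on the log2 scale within overlapping groups. The two-sided exact permutation p was 0.1 for the first and second of these ratios, the smallest that 3 against 3 libraries allow, and 0.7 for the ratio of PSMB10 to PSMB7 (Benjamini-Hochberg over 3 ratios: 0.15, 0.15 and 0.7). The inducible subunits together made up 0.630 ± 0.0607% of the summed CPM of the members in GFP and 0.935 ± 0.0505% in TEADi (SD, n = 3).

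**Figure D2:**
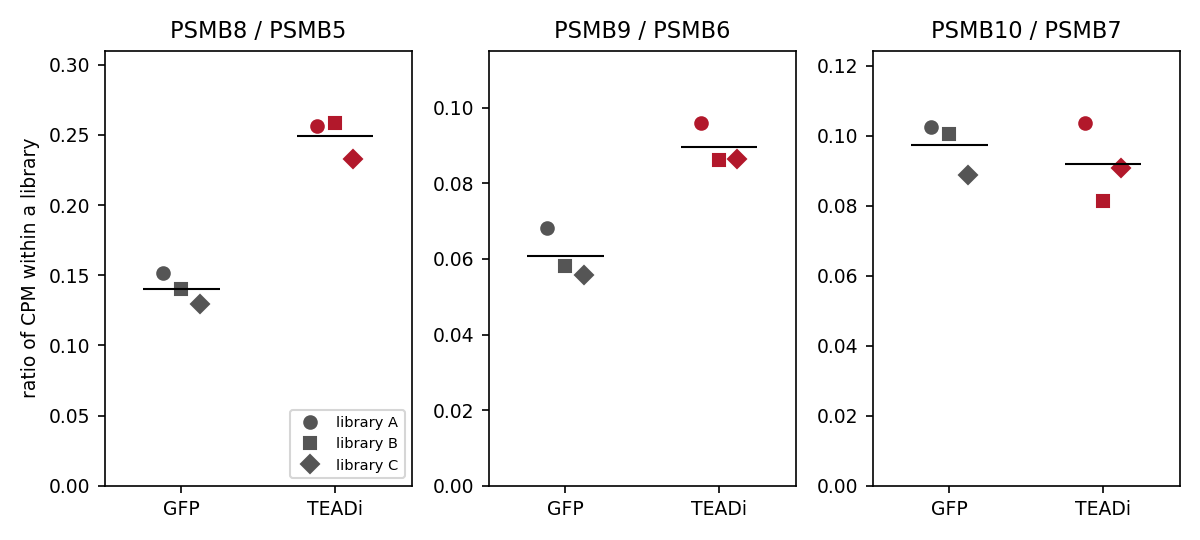
Ratio of the CPM of each inducible catalytic subunit to that of the constitutive subunit it replaces, within each library (points; circle A, square B, diamond C) with the group mean (line); all axes start at 0. The TEADi ratios of PSMB8 over PSMB5 (0.232 to 0.258) and of PSMB9 over PSMB6 (0.0863 to 0.0959) lie above all GFP ratios, and those of PSMB10 over PSMB7 overlap.

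In the 19S cap 14 of 17 subunits were lower and none was called higher. Among the 6 ATPases, which form the ring that unfolds substrates, 5 were lower. PSMC3 measured 315, 280 and 258 CPM under GFP and 206, 206 and 211 under TEADi (1.37-fold lower; log2 fold change -0.45 ± 0.07 SE; limma, Benjamini-Hochberg adjusted p = 5.6e-05). PSMC1 measured 284, 250 and 246 CPM under GFP and 190, 203 and 201 under TEADi (1.32-fold lower; limma, Benjamini-Hochberg adjusted p = 1.3e-04). In both genes the groups were well separated. PSMC4 was the ATPase that was not called, with 180, 156 and 157 CPM under GFP and 158, 148 and 154 under TEADi, and its groups overlapped (95% interval of the log2 fold change -0.25 to 0.05). The call of PSMC2 (log2 fold change -0.23) was lost without GFP library A, without TEADi library A or B and with equal totals.

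All 3 non-ATPase subunits of the base were lower. PSMD2, which docks ubiquitin receptors, measured 976, 893 and 876 CPM under GFP and 705, 725 and 745 under TEADi (1.26-fold lower; limma, Benjamini-Hochberg adjusted p = 9.1e-04). PSMD4, itself a ubiquitin receptor, measured 245, 221 and 201 CPM under GFP and 171, 177 and 181 under TEADi (1.26-fold lower; limma, Benjamini-Hochberg adjusted p = 8.9e-04). PSMD1, the other large scaffold, had a log2 fold change of -0.30. All 3 had separate groups. Of 8 lid subunits 6 were lower. PSMD11, a lid subunit that also touches the core, measured 215, 188 and 197 CPM under GFP and 136, 149 and 150 under TEADi (1.38-fold lower; log2 fold change -0.46 ± 0.07 SE; limma, Benjamini-Hochberg adjusted p = 2.3e-05). PSMD7, the partner of the deubiquitinase PSMD14, measured 124, 119 and 113 CPM under GFP and 86.9, 86.3 and 93.5 under TEADi (1.33-fold lower; limma, Benjamini-Hochberg adjusted p = 5.2e-05). PSMD14, which removes ubiquitin from substrates, went from 167 ± 16.8 to 141 ± 2.43 CPM (limma, Benjamini-Hochberg adjusted p = 0.0079; 0.0813 with quantile normalization).

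The lid members that were not called were PSMD3 and PSMD8. PSMD3 measured 358, 332 and 322 CPM under GFP and 298, 297 and 316 under TEADi, with separate groups (limma, Benjamini-Hochberg adjusted p = 0.0597; 0.0416 without GFP library C). PSMD8 measured 135, 124 and 114 CPM under GFP and 114, 117 and 115 under TEADi, with overlapping groups (95% interval of the log2 fold change -0.26 to 0.04).

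The 20S assembly chaperones held the largest falls. PSMG1 and PSMG2 form one heterodimer that holds the alpha ring during assembly, and PSMG3 and PSMG4 form another. PSMG1, at 40546695 to 40555777 on chromosome 21 (hg19, minus strand), measured 65.9, 48.8 and 54.2 CPM under GFP and 30.6, 28.8 and 30.0 under TEADi. Every TEADi value lay well below the lowest GFP value, a difference of 1.89-fold (log2 fold change -0.88 ± 0.09 SE; limma, Benjamini-Hochberg adjusted p = 5.0e-07). PSMG2 measured 45.8, 40.6 and 38.9 CPM under GFP and 27.3, 26.3 and 30.4 under TEADi (1.49-fold lower; limma, Benjamini-Hochberg adjusted p = 3.0e-05). PSMG3 measured 59.5, 56.9 and 51.6 CPM under GFP and 40.1, 39.3 and 40.4 under TEADi (1.40-fold lower; limma, Benjamini-Hochberg adjusted p = 3.7e-05). PSMG4, the partner of PSMG3, measured 11.9, 13.6 and 13.1 CPM under GFP and 12.2, 10.7 and 11.9 under TEADi, with overlapping groups (log2 fold change -0.14, 95% interval -0.36 to 0.09). PSMG4 overlaps TUBB2B, a gene on the opposite strand with 207% of its level, so their reads can be told apart only by strand, and the use of strand is not stated. The PSMG genes made up 1.96 ± 0.0125% of the members' summed CPM in GFP and 1.59 ± 0.0530% in TEADi (SD, n = 3).

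Of the 3 chaperones of the 19S base, PSMD10 (gankyrin) and PSMD5 were lower and PSMD9 was not called. PSMD10 measured 87.8, 74.7 and 73.9 CPM under GFP and 54.6, 54.5 and 55.6 under TEADi (1.44-fold lower; log2 fold change -0.51 ± 0.08 SE; limma, Benjamini-Hochberg adjusted p = 2.0e-05). PSMD5 measured 54.2, 50.1 and 46.6 CPM under GFP and 40.5, 38.8 and 45.6 under TEADi (limma, Benjamini-Hochberg adjusted p = 0.0100; 0.0600 without TEADi library B). PSMD9 measured 54.8, 48.9 and 48.7 CPM under GFP and 46.8, 41.9 and 45.8 under TEADi and was not called (limma, Benjamini-Hochberg adjusted p = 0.0590). All 3 had separate groups, PSMD10 by the widest margin.

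The activators split. PSME1 and PSME2, the PA28 alpha and beta subunits that interferon-gamma induces and that cap the immunoproteasome, are neighbours on chromosome 14 (hg19, 24605367 to 24608176 on the plus strand and 24612574 to 24616779 on the minus strand). PSME1 measured 57.4, 48.8 and 46.3 CPM under GFP and 68.1, 67.1 and 71.9 under TEADi. All TEADi values lay above all GFP values, 1.36-fold on average (log2 fold change 0.44 ± 0.08 SE; limma, Benjamini-Hochberg adjusted p = 1.7e-04). PSME2 measured 86.3, 79.9 and 67.2 CPM under GFP and 88.7, 86.7 and 82.0 under TEADi, with overlapping groups, and was not called (log2 fold change 0.15, 95% interval -0.03 to 0.32; limma, Benjamini-Hochberg adjusted p = 0.136). With equal totals and without GFP library A it was called higher; its adjusted p ranged from 0.0108 to 0.639 over the alternatives (limma, Benjamini-Hochberg).

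PSME3, the nuclear PA28 gamma subunit, was lower. It measured 445, 385 and 391 CPM under GFP and 282, 299 and 304 under TEADi (1.38-fold lower; log2 fold change -0.46 ± 0.07 SE; limma, Benjamini-Hochberg adjusted p = 3.1e-05). PSME4, the large activator PA200, measured 159, 148 and 169 CPM under GFP and 122, 138 and 129 under TEADi (1.22-fold lower; limma, Benjamini-Hochberg adjusted p = 0.0021). The inhibitor PSMF1 (PI31) measured 167, 156 and 157 CPM under GFP and 121, 115 and 128 under TEADi (1.32-fold lower; limma, Benjamini-Hochberg adjusted p = 6.7e-05). In these 3 genes every TEADi value was below every GFP value.

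**Figure D3:**
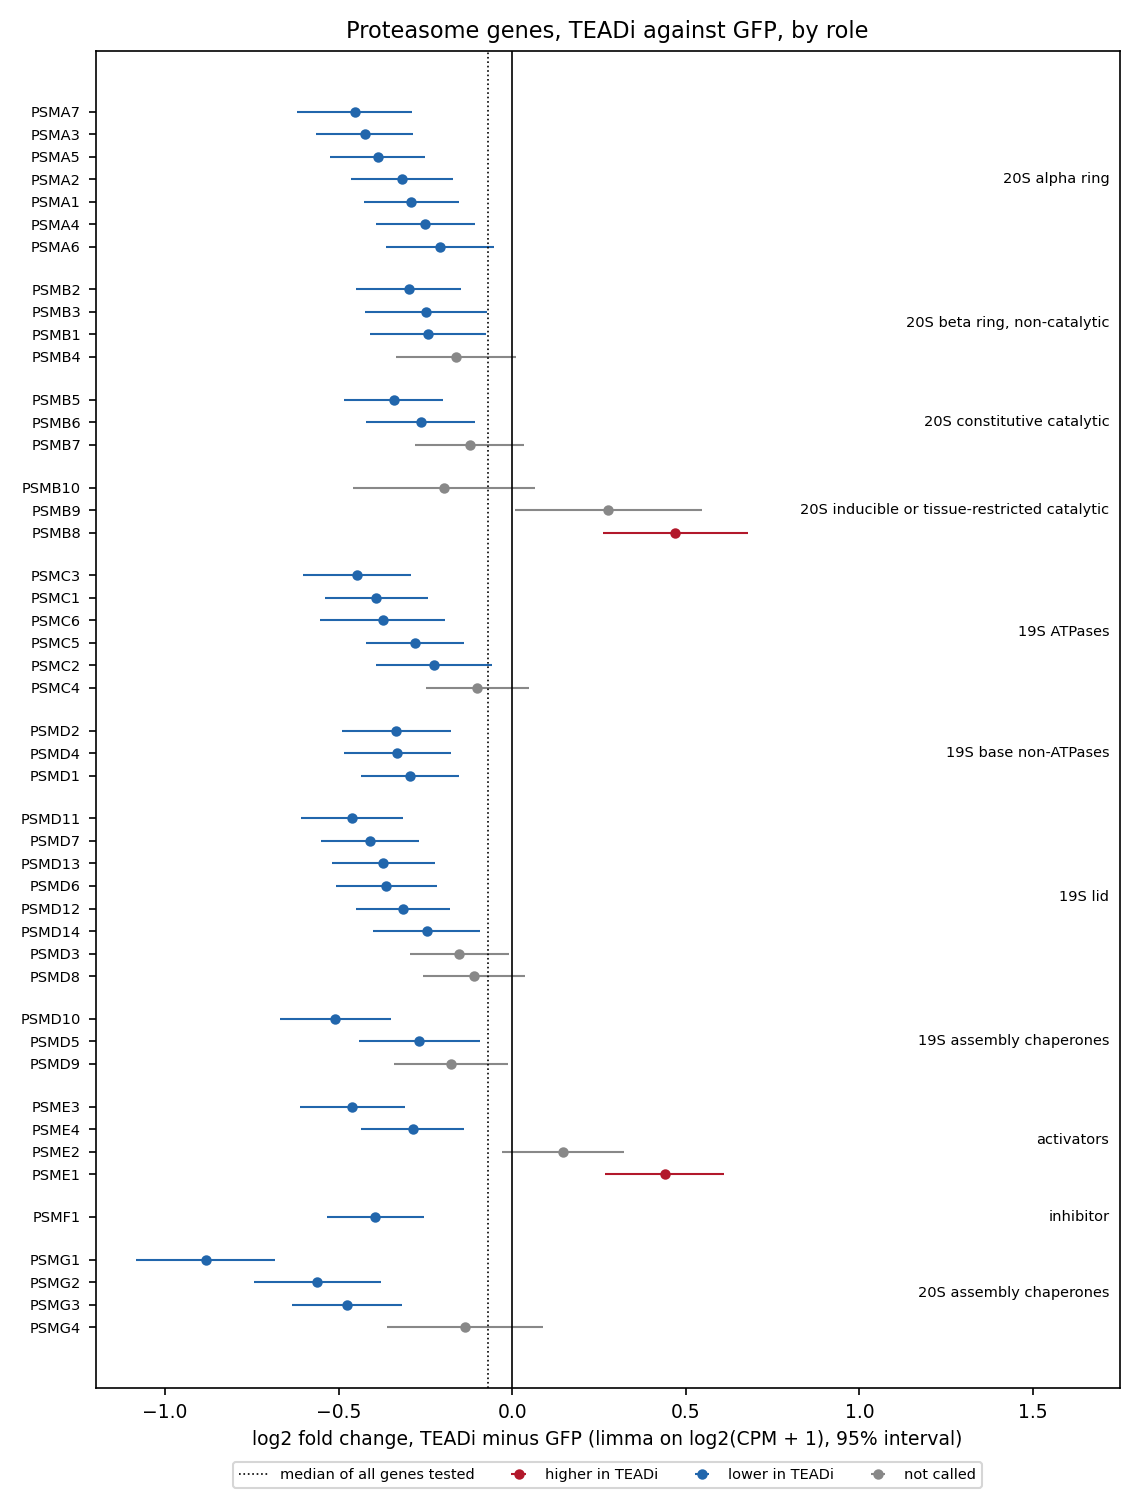
Fitted log2 fold change of each proteasome gene, TEADi minus GFP, on the log2(CPM + 1) scale with its 95% interval (limma, 3 libraries a group), in blocks by role; blue genes were called lower, red higher and grey not called, and the dotted line is the median of all genes tested (-0.07). PSMB8 (0.47) and PSME1 (0.44) lie to the right of 0, and PSMG1 (-0.88) lies farthest to the left.

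The promoters of the 2 chaperone genes with the largest falls, of both PA28 genes and of PSMB10 are shown because the transcription factor NRF1 acts through antioxidant response elements and interferon through response elements of its own. Each is the 250 bases before the RefSeq start of the gene (GRCh38.p14), 5′ to 3′ on the gene's strand. Capitals mark the antioxidant response element core TGACNNNGC in PSMG1, PSMG2 and PSME1, that core and then the interferon-stimulated core (GAAA, any 2 bases, GAAA) in PSME2, and the interferon-stimulated core in PSMB10.
PSMG1 (chr21:39183452-39183701, minus strand): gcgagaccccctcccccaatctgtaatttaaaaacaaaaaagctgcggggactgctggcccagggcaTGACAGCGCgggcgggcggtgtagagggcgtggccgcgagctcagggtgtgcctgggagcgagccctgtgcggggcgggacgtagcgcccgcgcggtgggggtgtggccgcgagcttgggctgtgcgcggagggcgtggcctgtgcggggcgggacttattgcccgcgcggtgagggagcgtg
PSMG2 (chr18:12658488-12658737, plus strand): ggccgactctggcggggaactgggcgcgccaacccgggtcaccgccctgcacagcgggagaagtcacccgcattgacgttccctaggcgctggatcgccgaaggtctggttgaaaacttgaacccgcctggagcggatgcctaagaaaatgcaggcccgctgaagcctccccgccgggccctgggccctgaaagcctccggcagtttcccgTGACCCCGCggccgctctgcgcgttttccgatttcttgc
PSME1 (chr14:24135944-24136193, plus strand): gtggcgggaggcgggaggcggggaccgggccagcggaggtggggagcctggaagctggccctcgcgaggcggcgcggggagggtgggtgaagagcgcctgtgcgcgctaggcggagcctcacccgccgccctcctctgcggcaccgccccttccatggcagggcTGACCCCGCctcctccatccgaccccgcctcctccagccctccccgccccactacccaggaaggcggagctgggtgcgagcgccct
PSME2 (chr14:24146611-24146860, minus strand): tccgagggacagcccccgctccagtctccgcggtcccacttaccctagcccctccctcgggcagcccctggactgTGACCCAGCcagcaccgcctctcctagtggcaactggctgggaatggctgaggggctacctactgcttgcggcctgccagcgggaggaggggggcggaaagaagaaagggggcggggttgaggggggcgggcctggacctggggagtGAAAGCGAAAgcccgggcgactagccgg
PSMB10 (chr16:67936851-67937100, minus strand): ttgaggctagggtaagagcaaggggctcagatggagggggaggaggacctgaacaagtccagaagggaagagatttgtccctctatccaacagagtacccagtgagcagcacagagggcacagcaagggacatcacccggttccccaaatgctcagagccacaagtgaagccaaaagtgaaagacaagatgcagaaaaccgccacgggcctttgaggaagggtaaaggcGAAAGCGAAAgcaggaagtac
The promoters shown and the core marked in each were picked by hand, so that each holds a core is not a result. The antioxidant core was present both in the chaperone genes with the largest falls and in PSME1, which rose. It was also present in PSMB3, PSMD5, PSMD12 and PSME4, which were called lower. The other members with it, PSME2, PSMB9, PSMD3 and PSMD9, were not called. The interferon-stimulated core lay in PSME2 and PSMB10, neither of which was called. PSMB8, the member with the largest rise, held neither core in its window. Of the 46 members 40 matched the table of promoters; PSMA7, PSMB1, PSMB6, PSMB7, PSMD4 and PSMG3 did not. Searched on both strands, TGACNNNGC was found in 11 of 40 members (27.5%) and in 11% of 27305 promoters of the same length; of the 26 matched constitutive subunits 3 held it, so most matches lay in the other members. The interferon-stimulated core was found in 5 members (12.5%) and in 3.07% of all promoters. Besides PSME2 and PSMB10 these were PSMA4, which was called lower, and PSMB4 and PSMG4, which were not called. The CCAAT box, CCAAT, was found in 17 members (42.5%, against 33%), 13 of them among the 26 matched constitutive subunits. The TEAD motif GGAATG was found in 3 members, PSMC6, PSME2 and PSME3 (7.5%, against 11.9%). A match of letters is a description and not a site, and no match says only that these letters are not in the window.

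The 31 subunits of the constitutive core and cap moved within a narrow band. Their log2 fold changes ran from -0.46 to -0.10, all on one side of 0, with an SD of 0.10 between subunits, against a median standard error of 0.07 for one subunit and an SD of 0.62 over all genes tested. All genes tested include genes near 1 CPM, and these subunits were not compared with genes of like level. Of the 31, 26 lay within 0.15 of their median of -0.30. The direction of PSMC4 turned with quantile normalization (0.01); the other 30 were negative in all 15 alternatives. Relative to the mean log2 CPM of these subunits in the same library, PSMB8 was higher by 0.78, PSME1 by 0.75, PSMB9 by 0.60 and PSME2 by 0.45 in TEADi than in GFP, and in each of these 4 genes the TEADi values lay above all GFP values. On the same relative scale PSMG1 was lower by 0.61 and PSMG2 by 0.28, again without overlap. PSMG1 thus went from -1.87 to -2.48, and PSMB8 from -2.96 to -2.18. These relative values carry no test, and the genes were picked after their values were seen. Separate groups were common among the members on this scale and do not set the named genes apart. For example, TEADi also lay above GFP in PSMB7, PSMC4 and PSMD8 and below it in PSMA7, PSMC3 and PSMD10. The share of all genes tested that separate on this scale was not computed.

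**Figure D4:**
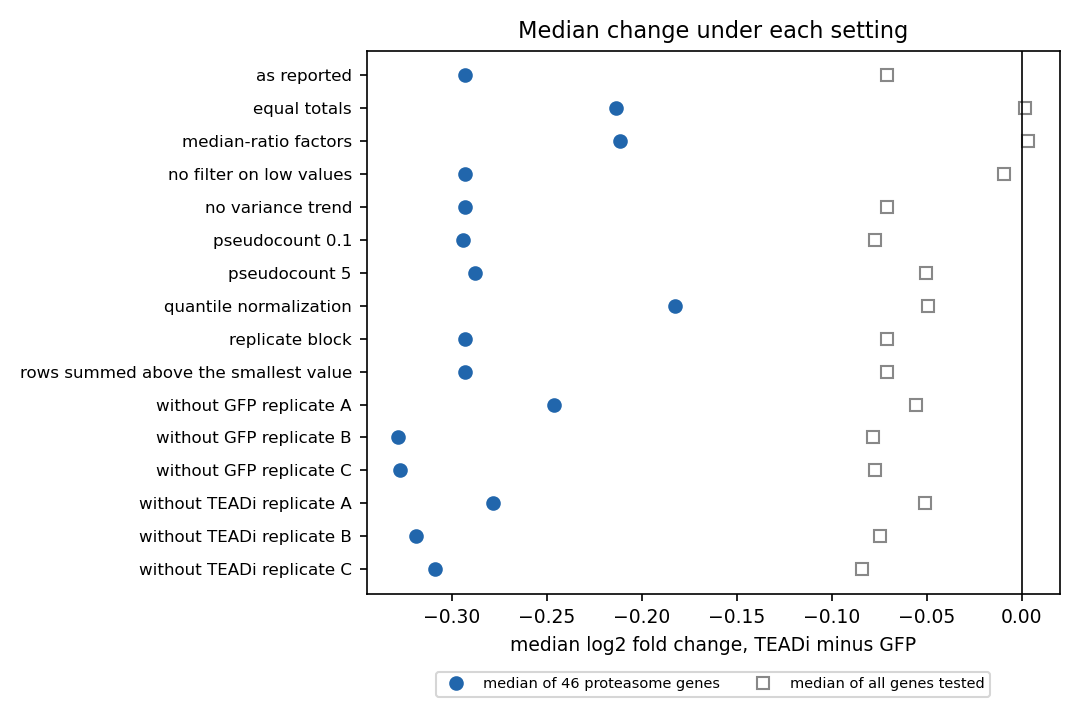
Median log2 fold change, TEADi minus GFP, of the 46 proteasome genes (filled circles) and of all genes tested (open squares) as reported and under each of 15 alternative settings. The median of the proteasome genes lies between -0.33 and -0.18 and below that of all genes tested in each setting.

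Other genes of the pathway were read from the same fit. Of 14 partners and further assembly factors, 11 were lower (78.6%, against 35.3% of all genes tested), 0 were higher by limma (against 25.5%) and 3 were not called (1 had an unadjusted p under 0.05); the median of the 14 was -0.28 on the log2 scale. PITHD1 measured 65.4, 59.5 and 56.9 CPM under GFP and 40.0, 35.6 and 38.9 under TEADi (limma, Benjamini-Hochberg adjusted p = 1.8e-06). The deubiquitinase UCHL5 measured 100.1, 91.4 and 90.0 CPM under GFP and 67.4, 66.8 and 68.9 under TEADi (limma, Benjamini-Hochberg adjusted p = 1.6e-05). PAAF1, a chaperone of the 19S base, measured 35.6, 35.6 and 37.1 CPM under GFP and 26.8, 25.8 and 26.7 under TEADi (limma, Benjamini-Hochberg adjusted p = 1.2e-04). The groups of these genes did not overlap. The 19S subunits ADRM1 and SHFM1 had log2 fold changes of -0.38 and -0.27 and were called lower. POMP, the maturation factor of the 20S core, was named after its values were seen: it measured 91.6, 94.8 and 94.7 CPM under GFP and 101, 100.3 and 100.4 under TEADi, all above GFP, and was not called (limma, Benjamini-Hochberg adjusted p = 0.167).

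Of 9 measured genes of NRF1 and its processing, 4 were lower (44.4%), 3 higher (33.3%) and 2 not called, close to the 35.3% lower and 25.5% higher among all genes tested. NFE2L1 measured 461, 490 and 497 CPM under GFP and 624, 626 and 669 under TEADi, 1.33-fold higher with no overlap (log2 fold change 0.41 ± 0.07 SE; limma, Benjamini-Hochberg adjusted p = 8.1e-05). NGLY1, the deglycosylase that processes NRF1, measured 47.4, 41.3 and 44.3 CPM under GFP and 30.1, 32.8 and 32.4 under TEADi (1.40-fold lower; limma, Benjamini-Hochberg adjusted p = 8.1e-05). The ligase SYVN1 and its adaptor SEL1L, which extract proteins from the endoplasmic reticulum, were higher, with log2 fold changes of 0.65 and 0.34. NFE2L2 and DDI1 were not analysed here.

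Of 11 genes of ubiquitin supply and shuttling, 8 were lower (72.7%, against 35.3% of all genes tested) and 1 was higher (9.09%, against 25.5%). UBQLN4, a shuttle that carries ubiquitinated proteins to the proteasome, measured 76.1, 67.9 and 64.9 CPM under GFP and 45.8, 48.5 and 48.8 under TEADi (limma, Benjamini-Hochberg adjusted p = 1.1e-05). RPS27A, which encodes ubiquitin fused to a ribosomal protein, had a log2 fold change of -0.35. The exception was UBA1, the main ubiquitin-activating enzyme, which measured 447, 427 and 444 CPM under GFP and 628, 662 and 687 under TEADi (log2 fold change 0.58; limma, Benjamini-Hochberg adjusted p = 1.4e-06). With equal totals, and without TEADi library B, 5 of these genes were called lower (against 30.2% and 32.1% of all genes tested).

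Of 9 measured genes of the interferon-gamma axis, 7 were higher (77.8%, against 25.5% of all genes tested) and 1 was lower (11.1%, against 35.3%). The remaining gene, IRF1, was named after its values were seen. IRF1 was not called and its groups overlapped (log2 fold change 0.05 ± 0.08 SE; limma, Benjamini-Hochberg adjusted p = 0.607). NLRC5, the co-activator of MHC class I genes, measured 7.86, 8.49 and 8.90 CPM under GFP and 18.1, 22.2 and 22.7 under TEADi (log2 fold change 1.22 ± 0.11 SE; limma, Benjamini-Hochberg adjusted p = 7.3e-08). IRF9 measured 9.63, 8.39 and 6.99 CPM under GFP and 19.3, 18.2 and 20.9 under TEADi. The groups of both genes did not overlap. The gene called lower was the peptide transporter subunit TAP2. It measured 127, 145 and 141 CPM under GFP and 102, 105 and 109 under TEADi (log2 fold change -0.38; limma, Benjamini-Hochberg adjusted p = 1.4e-04). JAK1 was not analysed here.

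Overlapping genes limit some of these values. Among the members 16 overlap another gene in the table that has at least 10% of their level, among them PSMA1 (COPB1), PSMD9 (WDR66), PSMC5 (FTSJ3), PSME1 (EMC9, 16.4%), PSME2 (RNF31), PSME3 (BECN1) and PSMG2 (CEP76, 26.1%), and 10 of the 16 were called lower and 1 higher. Of the other 30 members 24 were lower and 1 was higher. Processed copies of members, such as PSMC1P1 (2.98 CPM in GFP) and PSMA6P1 (1.04), are listed at low levels, and how reads were divided between copies is not given. In the authors' deposited table, which its name ties to GSA, the gene-specific analysis of Partek, 36 of the 46 members had an adjusted p under 0.05 with a ratio under 1 and 2 with a ratio above 1. These were the 36 members called here, with PSMD3 and PSMD9 in addition. PSMB9, not called in either, differed most plainly in its p-value. Its deposited entry with the highest GFP mean had a ratio of 1.22 and an adjusted p of 0.954 (the authors' GSA). Its summed entries gave 0.0701 here (limma, Benjamini-Hochberg).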

How the data were processed

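Poly(A) RNA of 6 SCC9 libraries (3 GFP, 3 TEADi) was sequenced from TruSeq libraries, per the labels' protocols. Per the submitters' processing notes, the build was hg19 and the tools were Partek 8.0.19.0819, STAR 2.5.1 and Trimmomatic 0.36; the quantifier, annotation release and strand use are not given in the sources used here. The authors deposited CPM scaled by TMM, as the name of the table and its totals of 827124 to 915558 per library show. The deposited statistics hold, per the file headers, the authors' p-values, their FDR step up, and the ratio and fold change of TEADi over GFP with the group means in CPM, from GSA, the gene-specific analysis of Partek, as the name of the table shows; the model it chose for each gene is not given in the sources used here.

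The 19921 entries were summed by symbol, as deposited. Genes at 1 CPM or above in 3 or more of the 6 libraries were fitted as log2(CPM + 1) with limma 3.58.1 in R 4.3.3 (variance trend, no covariates), two-sided, with Benjamini-Hochberg adjustment over 13648 genes and a threshold of 0.05. The code was tested on simulated data. Printed folds of single genes are ratios of mean CPM. Those of the inducible to constitutive ratios are the difference of mean log2 ratio, taken back from the log2 scale. Many low values are whole multiples of the smallest value of their library but some are not, so a count model was not used. The precision is set by the 3 libraries a group. Coordinates are in hg19 with the end as the table's stop minus 1; promoters are from RefSeq (GRCh38.p14). All members are accounted for. Values in each library were given for the catalytic subunits, activators, inhibitor and chaperones, for the 2 called genes with the smallest p of each other role, and for members not called; of the other pathway lists, up to 3 called genes with the smallest p and those against the majority were named; one gene that this rule names is not reported here. The members and lists were chosen with earlier results of these data known. Alternatives were another pseudocount, no filter, other scalings, another merging of rows, no variance trend, a replicate block and each library left out.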

Additional observations from a re-analysis of the deposited data

How the results depend on the processing

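Of the 46 members, 28 kept a lower call and 2 a higher call in all 15 alternatives, 5 were never called, 6 lost a lower call in some (PSMA6, PSMB1, PSMB3, PSMC2, PSMD5 and PSMD14) and 5 gained a call in some (PSMB4, PSMB9, PSMB10, PSMD3 and PSME2). Members called higher numbered 4 with equal totals and with median-ratio factors, and 2 to 4 when a library was left out, the 4 being without GFP library A. The median of the members was -0.21 with median-ratio factors, -0.18 after quantile normalization and -0.33 to -0.25 with a library left out. The median of all genes tested turned to 0.0020 with equal totals and 0.0035 with median-ratio factors. That of the activators turned to 0.0092, 0.0110 and 0.0367 with equal totals, median-ratio factors and quantile normalization. PSMC4, not called, turned to 0.0130 with quantile normalization. One partner gene was called higher (1, against 0) with each of these 3 scalings. In ubiquitin supply 5 genes were called lower with each of them and 5 to 8 with a library left out. Of all genes tested, 30.2%, 30.2% and 33.3% were lower with these scalings (same order), and 30.7%, 30.8% and 27.9% were higher. With a library left out, 31% to 34.6% of all genes tested were lower and 21.8% to 25.1% higher. The share of the lid in the members' summed CPM, TEADi minus GFP, was 0.0437 percentage points and ran from -0.124 (without GFP library A) to 0.217 with a library left out. The cause of these changes was not tested. With the replicate block, 34 members were called lower and 3 higher (34.8% and 25.6% of all genes tested), PSMB9 being the one added. Deviations of same-letter libraries from their group means correlated by 0.08, -0.06 and -0.02 across genes (A, B, C). With 3 libraries a group these values cannot decide whether same-letter libraries were paired, and the labels do not say. The standard errors of PSMB9, PSMB10 and PSMG4 were above 0.10; the part of depth in this was not tested.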

Other observations

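Antisense transcripts named after members, chosen after their values were seen, did not all move with the gene they overlap. PSMD6-AS2, a noncoding transcript on the strand opposite PSMD6, measured 0.536, 0.986 and 1.24 CPM under GFP (libraries A, B, C) and 2.501, 2.23 and 2.47 under TEADi (same order). All TEADi values lay above all GFP values (limma log2 fold change 0.84 ± 0.17 SE), while PSMD6 was 1.29-fold lower. Under GFP only library C reached 1 CPM for PSMD6-AS2. The transcript thus passed the filter on low values through the TEADi group, where it was high, and no p-value is given for it. The log2 fold change of PSMD6-AS2 was 1.36 with a pseudocount of 0.1 and 0.32 with a pseudocount of 5. PSMG3-AS1 did not pass the filter and measured 0.119, 0.379 and 0.207 CPM under GFP and 1.04, 0.935 and 0.724 under TEADi, while PSMG3 was lower. PSMD5-AS1 measured 12.1, 10.8 and 11.9 CPM under GFP and 7.94, 10.2 and 10.1 under TEADi, the same direction as PSMD5 (limma, Benjamini-Hochberg adjusted p = 0.0479; up to 0.219 over the alternatives, without TEADi library A). Whether counting respected strand is not given, so reads of each such pair cannot be told apart.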
